A study of Xenopus laevis with 32 samples.

Results

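The melanin pathway genes followed here are the rows whose identifier, without the homeolog ending .L or .S, is dct, pmel, tyr, tyrp1 or mlana. Of the 27467 genes listed in both count tables, 6 met that rule, namely dct.L, pmel.L, pmel.S, tyrp1.L, tyrp1.S and mlana.L. The endings mark the copies that this allotetraploid frog, Xenopus laevis, carries on its paired subgenomes. Of these 6 rows, 5 passed the filter on low counts, and tyrp1.S, with 12 reads in total over 5 libraries, did not. Tyrosinase itself, tyr, was not analysed here.

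Melanin is made in melanosomes, the pigment organelles of melanophores (the frog's melanocytes) and of the retinal pigment epithelium of the eye. In mouse and human, tyrosinase starts the synthesis from tyrosine, while dopachrome tautomerase (DCT) and tyrosinase-related protein 1 (TYRP1) act on later intermediates of the brown-black eumelanin. PMEL forms the fibrils on which the pigment is laid down, and MLANA is a small melanosomal membrane protein that binds PMEL. Melanophores of the trunk and tail arise from the neural crest and spread over the flank and the fins as the tadpole grows.

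Expression was measured by bulk RNA sequencing of amputated tails at 0, 0.5, 6 and 72 h after the cut, both in the period of regeneration and in the refractory one, a developmental window in which a cut tail does not grow back. Period and time gave 8 groups of 4 libraries, A to D, and each library pooled RNA from 20 embryos. Every group was amputated and none received another agent. The labels give neither a strain nor an age in days, and the extraction protocol names the regenerative stage for the refractory samples as well. Unamputated tails of a later time were not analysed here, so a change from 0 h spans both the response to the cut and the growth of the tadpole over the same hours, which cannot be told apart. Total counts per library on the genes in both tables ran from 1868302 to 4021785. Single libraries held between 76 and 233 reads of dct.L, 63 and 301 of pmel.L, 119 and 364 of pmel.S, 141 and 507 of tyrp1.L, and 16 and 105 of mlana.L.

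All libraries carried RNA of tail genes, and all carried RNA of genes typical of eye, liver and gut as well. The 17 tested genes of a tail muscle list summed to between 29930 and 113200 CPM (counts scaled to library size), and 15 genes of a notochord, cord and posterior patterning list to between 434.9 and 1012 CPM. The 33 tested genes of a photoreceptor, retina and lens list summed to between 699.7 and 1876 CPM, 10 genes of a retinal pigment epithelium list to between 57.89 and 175.2 CPM, and 12 liver, pancreas and gut genes to between 1567 and 3774 CPM. In 4 libraries the retina and lens sum stood highest, at 1686 CPM in regeneration 0 h A, 1812 in regeneration 0.5 h A, 1876 in regeneration 6 h B and 1805 in refractory 72 h A. These 4 are among the 5 libraries that the authors' normalized tables lack. Since eye pigment cells also use the melanin pathway genes, results that moved with these sums are given with and without the 5 libraries.

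The melanin pathway genes were lowest in regenerating tails at 72 h. All 5 tested genes had their lowest group mean there, and dct.L and pmel.L fell against 0 h by a little under 1 on the log2 scale. That place in the order was not particular to them. The summed retina and lens, pigment epithelium, liver and gut, muscle and melanocyte regulator lists also had their lowest group mean there. The remaining lists followed here did not. In the refractory period no member was called at 72 h against 0 h. For pmel.L the test of the difference between the periods passed, but the call was lost in 10 of 16 fits without 1 library and with the homeologs summed. In these bulk samples, fewer pigment cells, less pigment gene RNA per cell and a differing share of eye or other tissue cannot be told apart. The part of eye RNA was not tested beyond a covariate, given below.

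In the regeneration period, dct.L stood at 57.8, 50.1, 62.9 and 48.6 CPM in libraries A to D at 0 h, and at 30.8, 31.9, 27.8 and 28.8 CPM at 72 h. The 72 h libraries lay close together, and the highest of them was well below the lowest at 0 h. The means were 54.9 ± 6.72 CPM (SD, n = 4) and 29.8 ± 1.85 CPM (SD, n = 4). Dopachrome tautomerase RNA fell by 0.88 ± 0.21 (SE) on the log2 scale, to 0.544 of its 0 h level (edgeR quasi-likelihood test over all 32 libraries, Benjamini-Hochberg adjusted p = 0.00403). The call held in 8 of 8 fits that left out 1 library of these groups, with log2 changes between -0.93 and -0.81. The mean at 6 h, 42.2 ± 5.58 CPM (SD, n = 4), lay between those of 0 h and 72 h, and the change from 6 h to 72 h, -0.50 ± 0.21 on the log2 scale, did not pass (adjusted p = 0.295).

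The other tested enzyme, tyrp1.L, had 108.5, 97.4, 94.5 and 106.7 CPM in libraries A to D at regeneration 0 h and 87.7, 60.3, 78.4 and 71.4 CPM at 72 h. Again no 72 h library reached the lowest 0 h library, but the gap was narrow. Its change of -0.45 ± 0.16 on the log2 scale missed the threshold (adjusted p = 0.104). At 6 h library B held 170.3 CPM, while A, C and D held 92.2, 99.0 and 101.6 CPM. From 6 h to 72 h tyrp1.L fell by 0.63 ± 0.16 in log2 terms (adjusted p = 0.0178), the 1 member of 5 called in that comparison, in which 1.54% of all genes tested were called. That call rested on few libraries. Without 6 h B the change was -0.39 (adjusted p = 0.314), without 72 h B -0.54 (0.149), without 72 h D -0.61 (0.06), and over the 27 libraries of the normalized tables -0.39 (0.191).

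The melanosome matrix gene pmel has 2 measured homeologs. In the regeneration period pmel.L stood at 74.7, 80.4, 64.7 and 53.8 CPM at 0 h and at 35.9, 24.9, 48.2 and 33 CPM at 72 h, again without overlap. It fell by 0.95 ± 0.21 on the log2 scale, to 0.519 of the 0 h level (adjusted p = 0.00182). This call too held in 8 of 8 omissions, between -1.13 and -0.80. The other copy, pmel.S, held 83.2, 74.1, 73.1 and 55.3 CPM at 0 h and 58.0, 38.9, 49.2 and 43.6 CPM at 72 h, so that 72 h A exceeded 0 h D. Its change was -0.59 ± 0.20 on the log2 scale and was not called (adjusted p = 0.0871). How the authors' counting assigned reads that match both copies is not stated, so the split between pmel.L and pmel.S is uncertain. With the counts of the homeologs summed, the log2 change of pmel was -0.75 (adjusted p = 0.00336).

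The melanosomal protein gene mlana.L had the fewest reads of the tested members and the largest SE. At regeneration 0 h it had 26.1, 13.8, 12 and 28.9 CPM, and at 72 h 6.8, 11.3, 11.6 and 8.3 CPM. The 0 h libraries fell into a higher pair, A and D, and a lower pair, B and C, and the lowest, C, came within 1 CPM of the highest 72 h library. The change of -1.08 ± 0.35 on the log2 scale was not called (adjusted p = 0.0629). It was called when 0 h B (adjusted p = 0.0445) or 0 h C (0.0374) was left out.

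**Figure D1:**
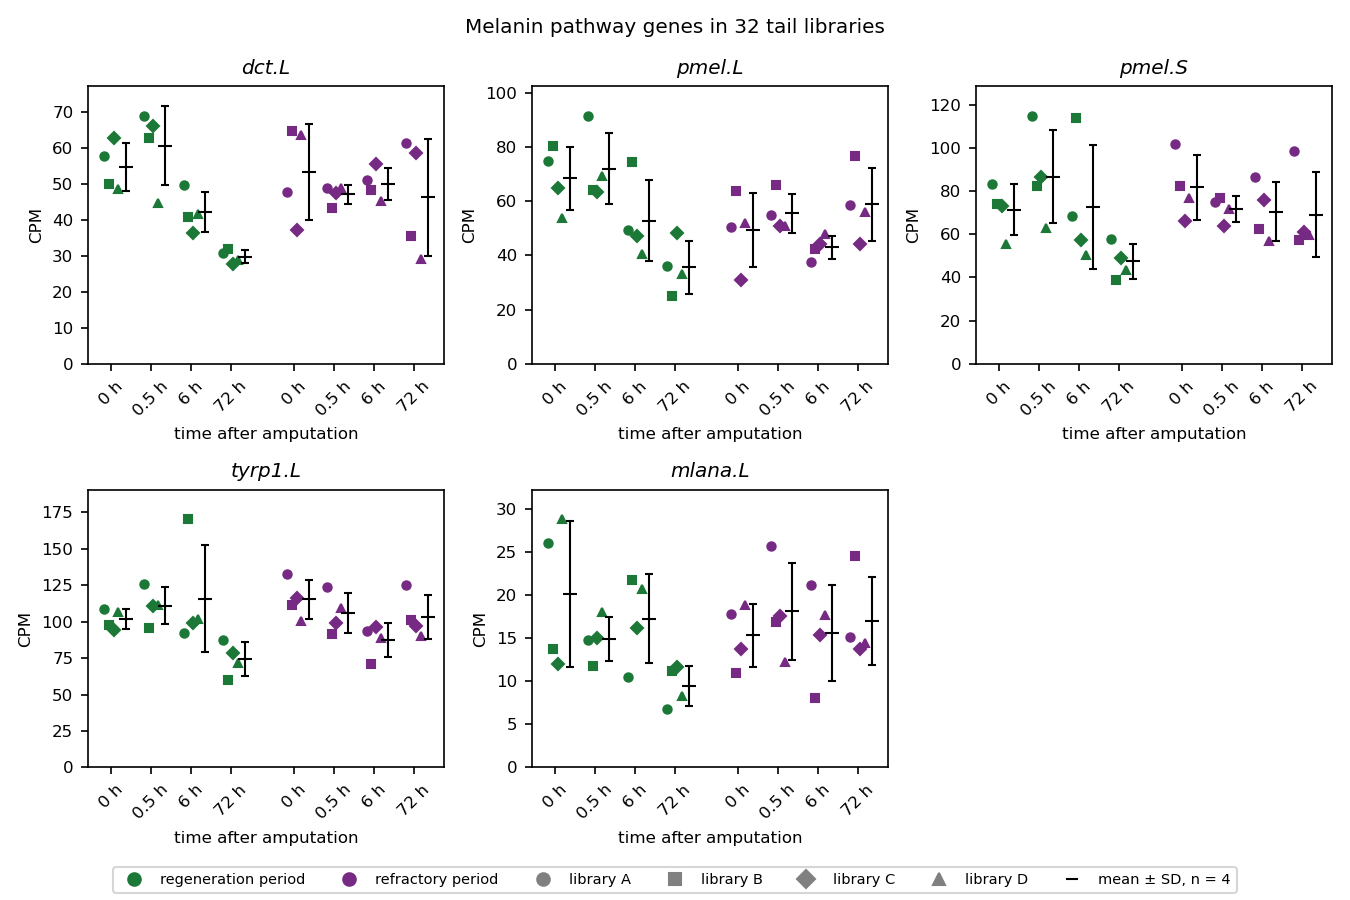
Level of each tested melanin pathway gene in CPM (vertical axis, from 0) in every library, by hours after amputation (horizontal axis), with regeneration in green and refractory in purple. Symbols mark libraries A to D, and bars give mean ± SD of 4 libraries. The 72 h regeneration group has the lowest mean in all 5 panels, and regeneration 6 h B stands above its group for tyrp1.L, at 170 CPM.

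Across the regeneration comparison of 72 h with 0 h, 2 of the 5 tested members were called, both lower, where 3.85% of all genes tested were called in either direction and 2.23% were called lower. All 5 members had an unadjusted p under 0.05, as did 3027 of the 21231 genes tested. In 4 of 5 members, pmel.S being the exception, every 72 h library lay below every 0 h library, which held for 4.63% of all genes tested. The median log2 change of the 5 was -0.88, and that of all genes tested was 0.02. Summed over the 5 genes, the 0 h libraries held 293.3 to 350.3 CPM and the 72 h libraries 167.2 to 219.2 CPM.

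In the refractory period the same genes showed no called change at 72 h, where 1.65% of all genes tested were called. The count at an unadjusted p under 0.05 was 0 of 5, where 2199 of the 21231 genes tested had such a p. DESeq2 called 0. No member's 72 h libraries all lay below its 0 h libraries, as those of 3.14% of all genes tested did. Refractory dct.L had 47.9, 64.8, 37.2 and 63.6 CPM at 0 h and 61.6, 35.7, 58.8 and 29.3 CPM at 72 h. The 72 h libraries split into a higher pair, A and C, and a lower pair, B and D, and D came down to the level of regenerating tails. Its change was -0.21 ± 0.21 on the log2 scale (adjusted p = 0.843).

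Refractory pmel.L had 50.5, 63.8, 30.9 and 51.8 CPM at 0 h and 58.7, 76.7, 44.1 and 55.8 CPM at 72 h. The groups overlapped, with C the lowest library at either time and B the highest. The change was 0.25 ± 0.21 on the log2 scale (adjusted p = 0.797). For the other 3 members the changes were -0.24 ± 0.20 for pmel.S, -0.16 ± 0.16 for tyrp1.L and 0.14 ± 0.34 for mlana.L, with adjusted p-values of 0.787, 0.848 and 0.965.

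The test of the difference between the periods called 1 of the 5 members, pmel.L, where 0.466% of all genes tested were called. Its change to 72 h was higher in the refractory period by 1.19 ± 0.29 on the log2 scale (adjusted p = 0.0326), a ratio of changes of 2.29. The other members differed in the same direction without being called. The differences were 0.67 ± 0.29 for dct.L (adjusted p = 0.495), 1.22 ± 0.49 for mlana.L (0.408), 0.35 ± 0.28 for pmel.S (0.861) and 0.29 ± 0.22 for tyrp1.L (0.845). The levels at 0 h enter these values. At 0 h the log2 difference, refractory minus regeneration, was -0.47 ± 0.21 for pmel.L (adjusted p = 0.462). For pmel.S it was 0.19 ± 0.20 (0.894), and neither was called.

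The pmel.L difference stood near the threshold. It kept its direction in 16 of 16 omissions of 1 library, between 1.02 and 1.38, and lost the call in 10 of them. The adjusted p-values without regeneration 0 h A, B or C were 0.0589, 0.0892 and 0.0535, and without regeneration 72 h A, B or D 0.059, 0.158 and 0.0702. Without refractory 0 h C or D they were 0.117 and 0.0618, and without refractory 72 h A or B 0.0511 and 0.138. With the homeologs summed, the difference for pmel was 0.72 and was not called (adjusted p = 0.237).

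**Figure D2:**
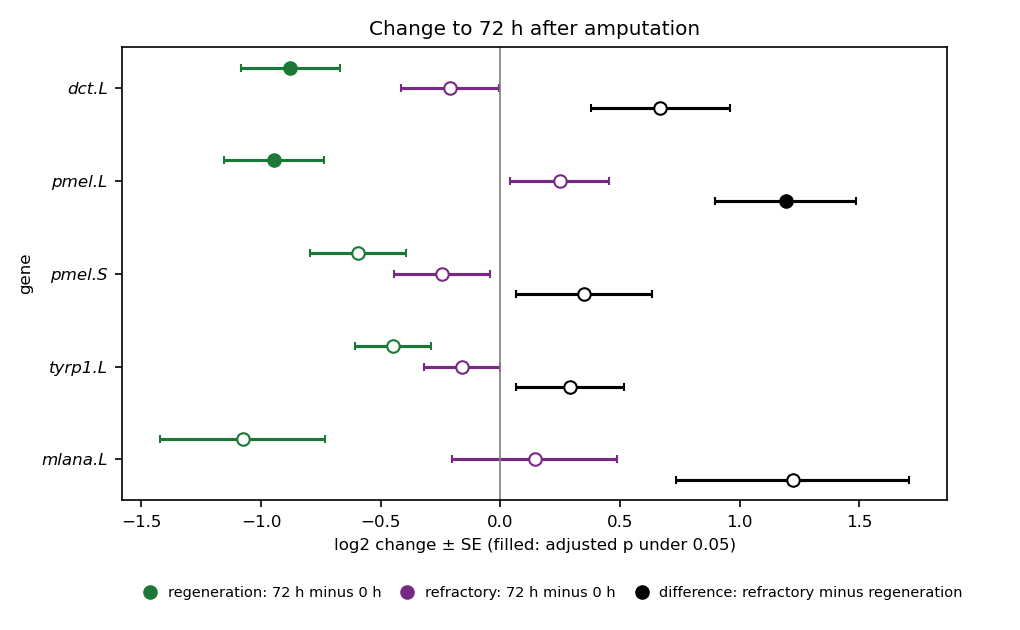
Change from 0 h to 72 h on the log2 scale (horizontal axis, points with SE bars) for each tested melanin pathway gene (vertical axis). Regeneration is in green, refractory in purple, the difference between them (refractory minus regeneration) in black, and filled points have an adjusted p under 0.05. Filled points are the regeneration changes of dct.L (-0.88) and pmel.L (-0.95) and the pmel.L difference (1.19).

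Set side by side at 72 h, refractory tails had a higher mean level of each melanin gene than regenerating tails, but no single gene was called. The log2 differences, refractory minus regeneration, were 0.72 ± 0.21 for pmel.L (adjusted p = 0.056), 0.64 ± 0.21 for dct.L (0.108), 0.47 ± 0.16 for tyrp1.L (0.125), 0.54 ± 0.20 for pmel.S (0.185) and 0.83 ± 0.35 for mlana.L (0.271). All 5 had an unadjusted p under 0.05, as did 2633 of the 21231 genes tested. In edgeR 1.51% of all genes tested were called. DESeq2 called 2 members, dct.L and pmel.L, but its own share over all genes is not given here. Leaving out regeneration 72 h C or refractory 72 h C brought pmel.L under the threshold (adjusted p = 0.0241 and 0.0309), and leaving out refractory 72 h D did so for dct.L (0.0381).

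Eye and liver genes had positive median log2 differences in the same comparison of the periods at 72 h. Of the 33 retina and lens genes 1 was called and 10 had an unadjusted p under 0.05, with a median of 0.62. Over all 21231 genes tested, 2633 had such a p. Of the 10 pigment epithelium genes 1 was called and 2 had such a p, with a median of 0.52. Of 12 liver, pancreas and gut genes 0 were called in edgeR and 7 had such a p, with a median of 0.56, against -0.01 over all genes tested. Their part in the differences of the melanin genes was not tested beyond the covariate. With the retina and lens sum as a covariate, the log2 differences of the melanin genes were 0.51 for pmel.L (adjusted p = 0.542), 0.53 for dct.L (0.547), 0.52 for mlana.L (0.88), 0.10 for tyrp1.L (0.976) and 0.03 for pmel.S (0.999). Over the 27 libraries of the normalized tables they were 0.73 for pmel.L (adjusted p = 0.0342), 0.48 for dct.L (0.329), 0.89 for mlana.L (0.253), 0.37 for tyrp1.L (0.231) and 0.33 for pmel.S (0.507).

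Earlier times and the starting levels showed no called member in edgeR or DESeq2. At 0.5 h against 0 h this was 0 of 5 in either period, with 0.0612% of all genes tested called in regeneration and 0.132% in the refractory period, and no member had an unadjusted p under 0.05. At 6 h against 0 h the background was 0.273% in regeneration, with 0 members at an unadjusted p under 0.05, and 2.45% in the refractory period, with 1, tyrp1.L. From 6 h to 72 h of the refractory period 2.26% of all genes tested were called, and pmel.L was the 1 member with an unadjusted p under 0.05. Between the periods, 0.669% of all genes tested were called at 0 h, 1.18% at 0.5 h and 1.83% at 6 h, with 1, 0 and 1 members at an unadjusted p under 0.05, pmel.L at 0 h and tyrp1.L at 6 h. For the difference in the change from 0 h, the background was 0% at 0.5 h, where 706 genes and 0 members had an unadjusted p under 0.05, and 0.0612% at 6 h, with 1 such member, tyrp1.L.

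All 5 members had regeneration 72 h at the bottom of the order of the 8 group means, and most neighbours above it differed by less than their spread. For dct.L the order ran from 60.7 ± 10.9 CPM (SD, n = 4) at regeneration 0.5 h, through 54.9 at regeneration 0 h, 53.4 at refractory 0 h, 50.1 at refractory 6 h, 47.2 at refractory 0.5 h, 46.3 at refractory 72 h and 42.2 at regeneration 6 h, to 29.8 at regeneration 72 h. Of the 7 steps between neighbours, the last was larger than the SD of either group. For pmel.L the order was regeneration 0.5 h (72.0 ± 13.2 CPM, SD, n = 4), regeneration 0 h (68.4), refractory 72 h (58.8), refractory 0.5 h (55.5), regeneration 6 h (52.8), refractory 0 h (49.2), refractory 6 h (42.9) and regeneration 72 h (35.5 ± 9.66 CPM, SD, n = 4). No neighbouring step of pmel.L exceeded the larger SD, although the highest mean was 2.03 times the lowest.

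Of the remaining members, tyrp1.L had its highest mean at regeneration 6 h, 116 ± 36.6 CPM (SD, n = 4), which included library B at 170.3 CPM, and its lowest at regeneration 72 h, 74.5 ± 11.6 CPM. Here 2 of 7 steps exceeded the larger SD, those from regeneration 0 h to refractory 6 h and from refractory 6 h to regeneration 72 h. For pmel.S the means ran from 86.6 ± 21.4 CPM at regeneration 0.5 h to 47.4 ± 8.23 CPM at regeneration 72 h, and for mlana.L from 20.2 ± 8.52 CPM at regeneration 0 h to 9.51 ± 2.33 CPM at regeneration 72 h (all SD, n = 4). In either gene 1 of 7 steps exceeded the larger SD, the step down to regeneration 72 h. The ratio of the highest to the lowest mean was 2.04 for dct.L, 2.12 for mlana.L, 1.83 for pmel.S and 1.56 for tyrp1.L. Scaled by CPM without transcript lengths, these levels do not rank 1 gene against another.

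Eye and liver gene sums were lower at 72 h too in the regeneration period, in overlapping ranges. The retina and lens sum was 859.2 to 1686 CPM at 0 h and 699.7 to 1008 CPM at 72 h in regeneration, and 1194 to 1544 CPM and 1087 to 1805 CPM in the refractory period. The retinal pigment epithelium sum was 89.82 to 160.6 CPM and 57.89 to 95.31 CPM in regeneration, and 103.9 to 175.2 CPM and 101.7 to 137 CPM in the refractory period. In regeneration at 72 h against 0 h none of the 33 retina and lens genes and none of the 10 pigment epithelium genes was called in edgeR or DESeq2, though 8 and 2 of them had an unadjusted p under 0.05, with median log2 changes of -0.44 and -0.55, against -0.05 and -0.04 in the refractory period. The liver, pancreas and gut sum was 1903 to 3632 CPM at 0 h and 1567 to 1996 CPM at 72 h in regeneration, and 2577 to 3132 CPM and 2377 to 3607 CPM in the refractory period. In regeneration 6 of its 12 genes had an unadjusted p under 0.05, with a median log2 change of -0.49. Over all 21231 genes tested, 3027 had such a p in that comparison. The fibrinogen gene fgb.L was the 1 called, at -1.02 ± 0.29 (adjusted p = 0.0238), with -0.66 (0.247) over the 27 libraries, -0.64 (0.352) with the retina and lens covariate and -0.65 (0.355) without 0 h A. That call was also lost without 0 h D (adjusted p = 0.0511) and without 72 h A or B (0.138 and 0.134).

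Of the defining pigment epithelium genes, the retinoid isomerase rpe65.L stood at 8.78 ± 2.19 CPM at regeneration 0 h and 8.67 ± 6.97 CPM at 72 h (SD, n = 4). Its spread at 72 h was wide. The gene does not stand for its list, whose median log2 change in that comparison was -0.55. Between the periods at 72 h, the eye and forebrain transcription factor otx2.L and the lens crystallin cryba1.L were higher in refractory tails by 1.02 ± 0.28 (adjusted p = 0.0402) and 1.30 ± 0.37 (0.0492) on the log2 scale. Either call was lost in 6 of 8 omissions of 1 library, for otx2.L those of A, B and C in either group (adjusted p = 0.0626 to 0.235), and for cryba1.L those of the 4 regeneration libraries and refractory A and B (0.0601 to 0.468). Over the 27 libraries the difference was 0.85 for cryba1.L (adjusted p = 0.303), while otx2.L was still called. With the retina and lens covariate the differences were 0.46 for otx2.L (0.782) and 0.56 for cryba1.L (0.858). The channel gene best1 was near 0, with 23 reads of best1.L and 14 of best1.S over all libraries.

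With the retina and lens sum as a covariate, the regeneration changes at 72 h were -0.80 for dct.L (adjusted p = 0.0125) and -0.80 for pmel.L (0.008), and the pmel.L difference between periods was 1.07 (0.0406). The same fit gave -0.81 for mlana.L (0.357), -0.26 for pmel.S (0.658) and -0.20 for tyrp1.L (0.717), and tyrp1.L from 6 h to 72 h was -0.32 (0.39). Over the 27 libraries of the normalized tables, the regeneration changes were -0.86 for dct.L (adjusted p = 0.00375) and -0.91 for pmel.L (0.0013), and the pmel.L difference was 1.14 (0.0288). Of the 4 libraries of highest eye gene sum, only regeneration 0 h A belongs to the groups of the regeneration change. For that change the 27 libraries thus differ little from leaving out this library alone. The part of eye RNA in these calls was not tested beyond the covariate.

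Muscle RNA also moved in these tails, and it did so in both periods. The muscle sum was 89500 ± 14300 CPM at regeneration 0 h and 39800 ± 7020 CPM at 72 h, and 93300 ± 17500 and 54700 ± 8060 CPM in the refractory period (SD, n = 4). Of 17 muscle genes, 16 were called lower in regeneration and 15 in the refractory period, with median log2 changes of -1.20 and -1.0. Between the periods at 72 h, 9 of the 17 muscle genes had an unadjusted p under 0.05, as did 2633 of the 21231 genes tested. Their median log2 difference, refractory minus regeneration, was 0.38, against -0.01 over all genes tested. The 1 called was actc1.S, at 0.49 ± 0.12 (adjusted p = 0.0305), where 1.51% of all genes tested were called. Over the 27 libraries its call was lost (0.127). The part of muscle RNA in the melanin gene values was not tested.

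**Figure D3:**
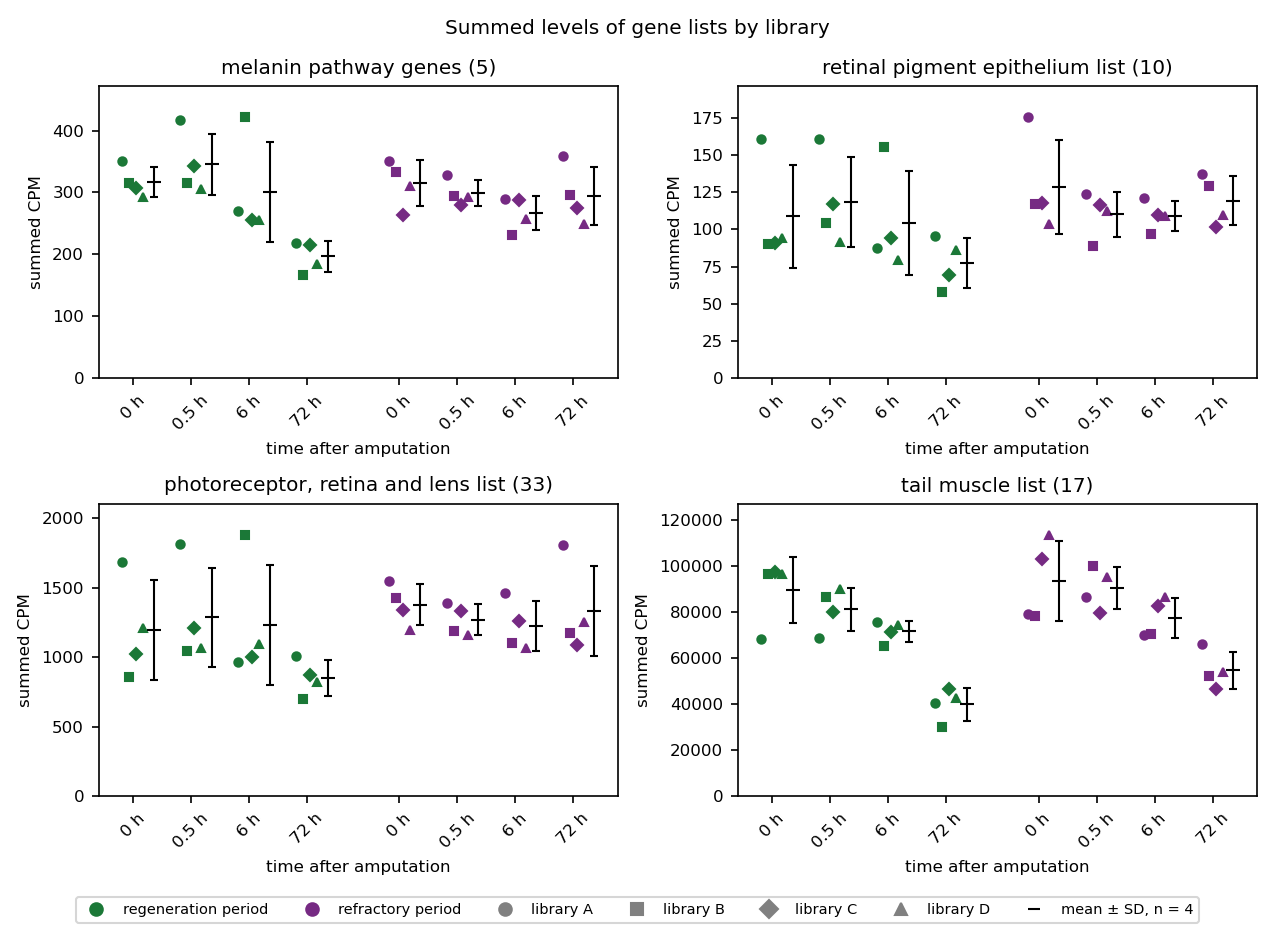
Summed CPM (vertical axes, from 0) of the 5 melanin pathway genes and of 3 marker lists in every library, by hours after amputation, with regeneration in green and refractory in purple; bars give mean ± SD of 4 libraries and brackets the number of genes. The melanin gene sum at regeneration 72 h, 167.2 to 219.2 CPM, lies below that of the other groups, and the muscle sum is lower at 72 h in both periods. Each of the 3 marker lists also has its lowest group mean at regeneration 72 h.

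In the other pigment lists, 1 gene was called in regenerating tails at 72 h. At 72 h against 0 h of regeneration, 0 of 8 tested genes for melanosome transporters and matrix, 0 of 23 for melanosome biogenesis and transport and 0 of 8 for the other pigment cells (xanthophores and iridophores) were called in edgeR or DESeq2, and 0 had an unadjusted p under 0.05. Over all genes tested 3.85% were called in that comparison, so lists of this size hold few or no called genes at the background share. Their median log2 changes were -0.01, 0.13 and -0.21, against 0.02 over all genes tested. The sodium-calcium exchanger slc24a5.L and the transporter slc45a2.L, which set the ion content of melanosomes in mammals and fish, stood at 2.08 ± 1.56 and 8.28 ± 2.89 CPM at 0 h and 0.806 ± 1 and 6.65 ± 3.01 CPM at 72 h (SD, n = 4). Their log2 changes of -1.35 ± 1.18 and -0.30 ± 0.58 (adjusted p = 0.698 and 0.9) had SEs too wide to detect a change of the size seen for dct.L at this depth.

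Among 21 tested regulators of melanocytes and their neural crest precursors, 1 was called in regenerating tails at 72 h. That share is near the 3.85% called over all genes tested. Of these regulators 6 had an unadjusted p under 0.05, as did 3027 of the 21231 genes tested. DESeq2 called 2, and its own share over all genes is not given here. The neural crest transcription factor foxd3.S had 76.5, 67.4, 51.3 and 58.9 CPM at 0 h and 32.1, 34.6, 34.4 and 58.0 CPM at 72 h. Library D at 72 h stood within the 0 h range, and the other 3 lay below it. The fall was 0.68 ± 0.20 on the log2 scale (adjusted p = 0.0306), lost in 6 of 8 omissions. These were 0 h A, B and D (adjusted p = 0.154, 0.0794 and 0.0508) and 72 h A, B and C (0.15, 0.143 and 0.112), and over the 27 libraries it was 0.0733. The master regulator of melanocytes in mammals, mitf.L, was near the detection limit, at 0.613 ± 1.05 CPM at regeneration 0 h and 1.35 ± 0.891 CPM at 72 h (SD, n = 4; adjusted p = 0.743).

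In the refractory period, the transporter and matrix list held the called genes. Both of those called at 72 h against 0 h were higher, of 8 tested, and the list median was 0.75 on the log2 scale. The 3 remaining pigment lists had 0 called of 23, 21 and 8 genes in edgeR or DESeq2, with 1, 0 and 1 at an unadjusted p under 0.05. Over all genes tested, edgeR called 1.65% in that comparison, and 2199 of 21231 had such a p. Lists of this size thus hold few or no called genes at the background share. The PMEL-related glycoprotein gene gpnmb.L, known in mouse from melanosomes and also from macrophages, had 16.5, 12.4, 15.7 and 9.44 CPM at 0 h and 22.7, 42.5, 62.7 and 24.3 CPM at 72 h. All 72 h libraries exceeded all 0 h libraries, with C the highest. It rose by 1.5 ± 0.34 on the log2 scale (adjusted p = 0.00657), but the adjusted p was 0.148 without 72 h C and 0.0593 without 0 h D.

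From 6 h to 72 h of the refractory period gpnmb.L rose by 1.76 ± 0.35 in log2 terms (adjusted p = 0.00058), and at 72 h it was higher in refractory than in regenerating tails by 1.41 ± 0.34 (adjusted p = 0.0143). The latter call was lost without regeneration 72 h A or B (adjusted p = 0.0607 and 0.11), without refractory 72 h B or C (0.0525 and 0.128) and with the eye gene covariate (0.0706). The zinc transporter gene tmem163.L had 9.33, 7.68, 4.90 and 11.5 CPM at refractory 0 h and 26.5, 26.8, 16.5 and 22.3 CPM at 72 h, without overlap. The rise of 1.44 ± 0.41 (adjusted p = 0.0456) was kept without 72 h C and lost in the other 7 of 8 omissions, of 0 h A, B, C and D (0.0734, 0.12, 0.193 and 0.0627) and 72 h A, B and D (0.0922, 0.126 and 0.0904). The summed list stood at 51.8 ± 2 CPM at refractory 0 h and 110 ± 17.1 CPM at 72 h, and at 72.6 ± 11.7 and 74.1 ± 14 CPM in regeneration (SD, n = 4).

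Other called pigment genes were few. At refractory 6 h against 0 h, the neural crest factor tfap2a.L rose by 0.61 ± 0.17 on the log2 scale (adjusted p = 0.0287). Its libraries held 58.1, 63.4, 81.8 and 83.9 CPM at 0 h and 87.0, 127, 109 and 115 CPM at 6 h. The call was lost without 0 h A or B (adjusted p = 0.134 and 0.124) and without 6 h B or D (0.167 and 0.0896).

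In the same comparison sox10.S, whose mouse counterpart switches on Mitf and Dct, fell by 1.11 ± 0.33 in log2 terms (adjusted p = 0.0473). It went from 28.4, 31.0, 18.1 and 29.0 CPM to 10.8, 17.1, 9.26 and 12.8 CPM, again without overlap. The adjusted p was 0.116, 0.152 and 0.116 without 0 h A, B or D, 0.129, 0.194 and 0.107 without 6 h A, C or D, and 0.182 with the homeologs summed. It was also just above 0.05 with RLE size factors (0.0503), with no filter on low counts (0.0502) and with the eye gene covariate (0.0529). In these groups dct.L held 53.4 ± 13.2 CPM at 0 h and 50.1 ± 4.35 CPM at 6 h (SD, n = 4).

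Among the xanthophore and iridophore genes, pnp.S, a purine nucleoside phosphorylase whose zebrafish relative marks iridophores, was lower in refractory than in regenerating tails at 72 h by a log2 difference of -1.46 ± 0.32 (adjusted p = 0.0132). The refractory libraries held 23.0, 17.1, 12.6 and 24.0 CPM and the regeneration libraries 62.6, 61.9, 49.2 and 38.1 CPM. This direction was opposite to that of the melanin genes. The adjusted p was 0.0677 without regeneration 72 h B, 0.0622 without refractory 72 h B, 0.079 with the homeologs summed and 0.41 with the eye gene covariate. At 6 h the difference was -1.37 ± 0.33 (adjusted p = 0.0172), with 0.0935 and 0.0728 without regeneration 6 h A or D, 0.076 and 0.097 without refractory 6 h B or C, and 0.1 with the homeologs summed.

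**Figure D4:**
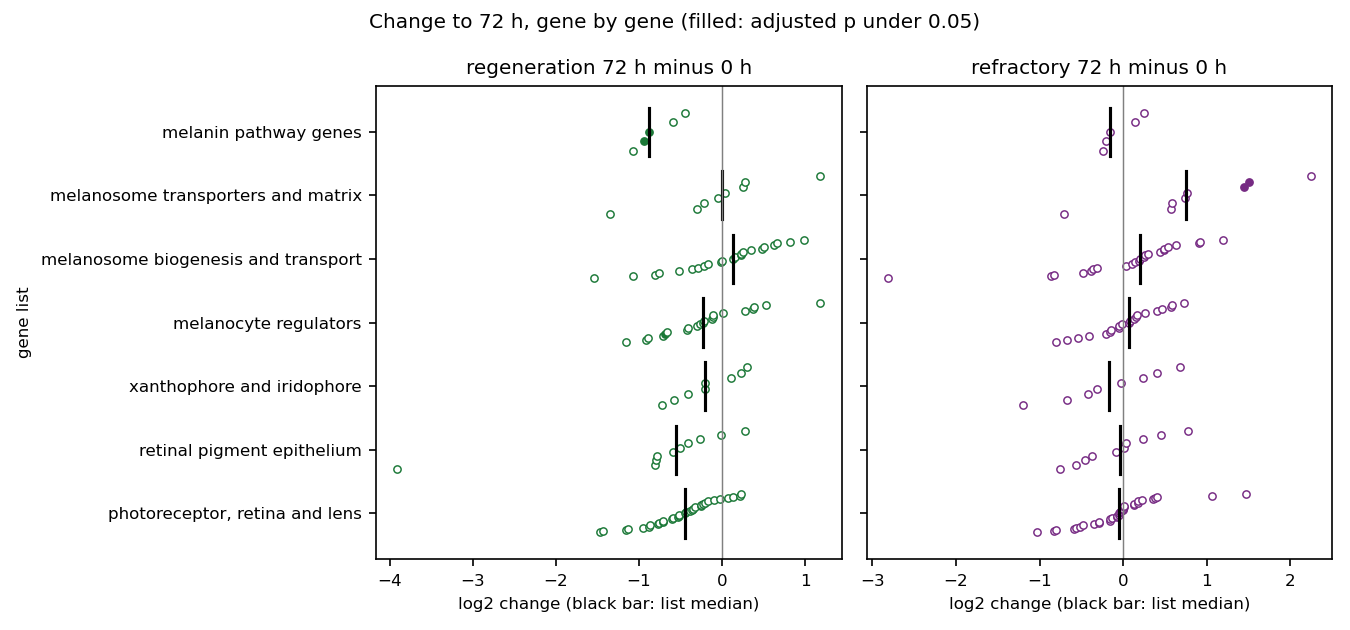
Log2 change from 0 h to 72 h of each tested gene (horizontal axes) in 7 lists (vertical axis), for regeneration (left) and refractory tails (right); filled points have an adjusted p under 0.05 and black bars are list medians. The melanin gene median is -0.88 in regeneration, and in refractory tails the transporter and matrix median is 0.75, with gpnmb.L and tmem163.L filled.

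The balance between the pmel homeologs varied between libraries. At regeneration 0 h the share of pmel reads on pmel.L was 47.3, 52.0, 47.0 and 49.3% in libraries A to D, and at refractory 0 h it was 33.1, 43.6, 31.8 and 40.3%. All refractory libraries lay below all regeneration libraries. How often other homeolog pairs separate in this way was not tested. The exact binomial 95% intervals of single libraries, which cover counting error alone, were 43.4 to 51.3% for regeneration 0 h A and 28.3 to 38.3% for refractory 0 h A. The means of 48.9% ± 2.31 and 37.2% ± 5.66 (SD, n = 4) differed by -11.7 percentage points, refractory minus regeneration, with an exact permutation p = 0.0286, the smallest that 4 against 4 libraries allow. Adjusted over the 12 such comparisons made it was 0.172 (exact permutation test, two-sided), so the difference did not pass. No comparison could pass this correction unless most of the 12 stood at that smallest p. The missed threshold therefore cannot decide whether the share differed.

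In regeneration the pmel.L share was 42.7% ± 2.54 (SD, n = 4) at 6 h, -6.16 points from 0 h, with the same exact permutation p = 0.0286 and adjusted value of 0.172. The other 10 comparisons had exact permutation p-values between 0.114 and 0.943. At refractory 72 h the share was 37.3, 57.3, 42.0 and 48.3%, with B the highest of all 32 libraries. These comparisons were chosen after the values were seen.

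**Figure D5:**
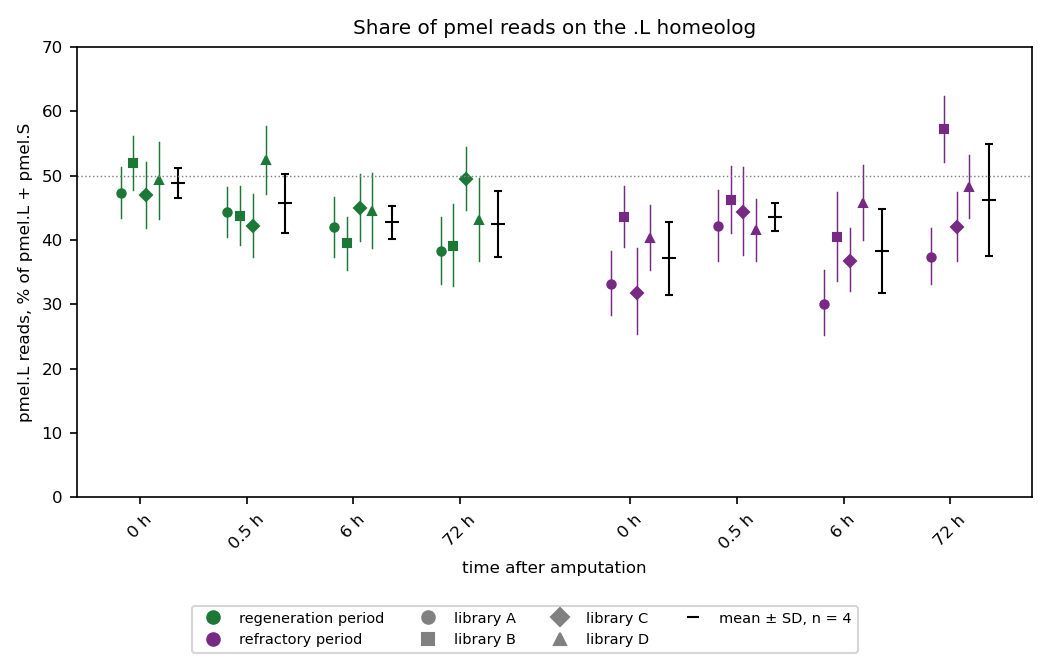
Reads on pmel.L as a percentage of the reads on pmel.L and pmel.S (vertical axis, from 0) in every library by hours after amputation, regeneration in green and refractory in purple. Thin lines are exact binomial 95% intervals, black bars mean ± SD of 4 libraries, and the dotted line marks equal reads. The refractory 0 h libraries, 31.8 to 43.6%, lie below the regeneration 0 h libraries, 47.0 to 52.0%.

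Correlations among the melanin genes over the 32 libraries ranged widely. The Spearman correlation of log2 CPM with dct.L was 0.69 for pmel.S, 0.41 for pmel.L, 0.39 for tyrp1.L and 0.07 for mlana.L. With pmel.L it was 0.52 for pmel.S, 0.47 for tyrp1.L and 0.35 for mlana.L. The points share libraries, depth and tissue make-up, and the values are descriptions with no test.

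Outside the pathway, the genes most like dct.L over the 32 libraries were map7d2.L (Spearman 0.70), rnf165.L (0.67), prune1.L (0.67), slmap.L (0.66) and the muscle tropomyosin gene tpm2.L (0.66). Among the tested genes, pmel.S ranked second in likeness to dct.L, behind map7d2.L, which had 67.7 ± 5.23 CPM at regeneration 0 h and 40.5 ± 2.33 CPM at 72 h (SD, n = 4). The genes most like pmel.L were efs.L (0.73), neo1.L (0.73), XB5760648.L (0.70), mcrip2.L (0.70) and LOC121393059 (0.69). Of these 10 genes, map7d2.L, rnf165.L, tpm2.L, efs.L, XB5760648.L, mcrip2.L and LOC121393059 were also called lower at 72 h of regeneration. Their log2 changes lay between -1.28 for LOC121393059 and -0.69 for XB5760648.L. Over all genes tested 3.85% were called there. The 10 genes were picked by likeness over libraries that include these groups, so a shared fall follows largely from that choice. In refractory tails tpm2.L fell by 0.46 ± 0.11 in log2 terms (adjusted p = 0.00846), and none of the other 9 was called.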

How the data were processed

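Total RNA of amputated tails was made into libraries by Lexogen's SENSE Total RNA-Seq protocol and sequenced on an Illumina NextSeq 500, per the labels' protocols. The submitters' processing notes name R 4.1.0, DESeq2 1.32.0, HTSeq 0.6.1p1 and STAR 2.7.9a. Genome build and annotation: not given in the sources used here, and positions are left out. For each period 1 deposited raw table holds counts of reads per gene, whole numbers without normalization. The authors' normalized tables hold a signal that equals those counts divided by 1 size factor per library, for 27 of the 32 libraries, and served to define an alternative set of libraries. All 59 columns were matched to samples by title, and 1 empty line of each table was dropped.

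Genes listed in both raw tables were analysed in R 4.3.3 with edgeR 4.0.16: TMM scaling, filterByExpr by group, and 1 robust quasi-likelihood model of 8 groups over 32 libraries. The model tested 21231 genes; its residual degrees of freedom were 24 and the common biological coefficient of variation 0.38. Adjusted p-values are two-sided and Benjamini-Hochberg corrected over all tested genes within each of 15 contrasts, and called means under 0.05. The labels name 4 biological repeats without saying that they were separate clutches, so p-values measure the spread between samples as labelled. CPM uses TMM-adjusted library sizes.

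All members are named. Of each other list, up to 3 called genes per contrast with the smallest adjusted p could be named; mitf.L, slc24a5.L, slc45a2.L, rpe65.L and best1 were added for their known roles, after their values were seen. Likeness used log2 CPM with a prior count of 2. The members, lists and tests were chosen with earlier results of these data known. The model was tested on simulated counts with less spread than these data and larger changes than those of the members. Its power at changes of the members' size was not tested. Alternatives were the 27 libraries, DESeq2 1.42.0, RLE size factors, no filter, a replicate block, a fit of the compared groups alone, summed homeologs and leaving out each library, and, chosen after seeing the data, the eye gene covariate and a block shared by both periods.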

Additional observations from a re-analysis of the deposited data

Results flagged for a closer look

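Of 40 groups of 4 libraries, 5 genes by 8 groups, 3 held a library far from the other 3; chance gives about 1 group in 20. In the regeneration 6 h group, library B had 170 CPM of tyrp1.L, against 92.2 to 101.6 CPM in the others; its retina and lens sum, 1876 CPM, was the highest of all 32 libraries. In the refractory 72 h group, library A had 98.5 CPM of pmel.S, against 57.1 to 60.9 CPM, and a retina and lens sum of 1805 CPM. In the same group, library B had 24.6 CPM of mlana.L, against 13.8 to 15.2 CPM, with a retina and lens sum of 1175 CPM. The part of eye RNA in these values was not tested.

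The change of pmel.L to 72 h differed between the periods by 1.19 on the log2 scale, refractory minus regeneration, by the test of the difference itself (edgeR adjusted p = 0.0326).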

How the results depend on the processing

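The calls of lower dct.L and pmel.L at 72 h of regeneration were made in the main fit and in the alternatives run, with the homeologs of pmel summed in one of them. Leaving out 1 library gave 2 to 3 members called there; the added one was mlana.L, which DESeq2 called too (adjusted p = 0.023), while the fit of the compared groups alone called pmel.S (0.0465). From 6 h to 72 h of regeneration, 0 members were called over the 27 libraries, in the fit of the compared groups alone and with the eye gene covariate, and 0 to 1 without 1 library. For refractory against regeneration at 72 h, 1 was called over the 27 libraries, with RLE size factors, in the fit of the compared groups alone and with homeologs summed, 2 with DESeq2, and 0 to 1 without 1 library. For the difference between the periods at 72 h, 0 were called in the fit of the compared groups alone (pmel.L 1.19, adjusted p = 0.0512) and with homeologs summed, and 0 to 1 without 1 library. The shares of all genes called under these alternatives are not given here, so their counts of members have no background beside them. Why the fits differed in their calls was not tested. In refractory tails at 72 h, where neither was called, the change of pmel became -0.0333 with homeologs summed, and that of mlana.L -0.0872 without refractory 72 h B, in a range of -0.0872 to 0.264. The pmel.L share difference at 0 h was -12.2 points over the 27 libraries (exact permutation p = 0.0571) and -13.8 to -9.87 without 1 library, and the change at regeneration 6 h was -5.59 (exact permutation p = 0.1) and -6.91 to -5.07. Fewer libraries give this test fewer arrangements, so these p-values do not compare with those over all libraries. A tally of values under alternatives left out the counts of members called. It covered the members' changes in the contrasts ending at 72 h, except refractory 72 h against 6 h. It also covered up to 3 called genes per list and contrast, the list counts at 72 h against 0 h, and the pmel.L share differences given above. Member changes in the remaining contrasts were tried too but not tallied. Of the values tallied, 1051 stayed the same. Same meant direction and side of the threshold, direction alone for the pmel.L share, and a similar size for a count over a list. A further 140 lost a call or, for a list count, shrank, and 31 gained one or grew. Among the values tallied, the 2 that changed sign are the pmel and mlana.L values given above.

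The letters A to D showed little pairing of the libraries. Correlations of deviations within same-letter pairs lay between -0.15 and 0.20, with 1 of 48 above 0.1. In 32 of 96 comparisons, which use each library repeatedly, a library correlated best with its own letter. That count was above the chance share for 4 letters. With the letter as a replicate block within each period, dct.L and pmel.L changed by -0.87 (adjusted p = 0.00563) and -0.93 (0.0017) at 72 h of regeneration, the pmel.L difference was 1.19 (0.0263), and no member's call changed. Of the other named genes, the block ended the calls of tmem163.L at refractory 72 h (1.45, adjusted p = 0.0586) and sox10.S at refractory 6 h (-1.1, 0.0575), and the shared block that of cryba1.L between periods at 72 h (1.27, 0.0528). The block within each period was not applied to contrasts between the periods at 1 time. There a replicate block shared by both periods gave 0 members called. With 16 to 105 reads per library, mlana.L had the fewest reads of the tested members. The part of depth in its missed call was not tested.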
